A study of Homo sapiens with 18 samples.

Results

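The comparison set 3 Kelly libraries against 3 BE2C libraries in which the cells of both lines carried the same lentiviral hairpin against AHR, named shAhR-2, and asked where open chromatin differed between the lines under that shared treatment. Members were chosen by the titles and genotype labels, which gave 6 of the 18 ATAC-seq libraries. That these were the longest and most alike lists of the series was known when this comparison was chosen. In their 6 peak lists, cut to equal length, 108190 merged regions were found, of which 4382 were Kelly-specific and 9649 were BE2C-specific. A region was called specific to a line when all 3 shortened lists of that line held a peak there and none of the 3 full lists of the other line did. Kelly and BE2C are established human neuroblastoma lines, described in the series title as carrying MYCN amplification. The other 12 libraries came from the same lines with the empty vector pLKO or with the other of the 2 hairpins, shAhR-1, in 3 libraries for each line and vector. Each library was made from 50K cells with a transposition of 30 min and 10 PCR cycles. The labels do not state that the 3 libraries of a group came from separate cultures, so p-values cover the spread of libraries only, and that spread may be technical. The level of AHR, genes near the regions, marker genes of the cell type and distances to annotated start sites were not analysed here.

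ATAC-seq uses a transposase that cuts and tags DNA where nucleosomes leave it accessible, so peaks mark promoters, enhancers and other regulatory DNA. Promoters of widely used genes are open in most cell types, while enhancers far from promoters are often open in only some of them, and neuroblastoma lines are known to differ in such enhancers. AHR encodes AhR, a bHLH-PAS transcription factor that small-molecule ligands activate and that binds DNA together with ARNT. Because all 6 libraries carried the hairpin, no library of this comparison shows either line without it. The 12 other libraries show which of the differences were also seen with the empty vector or the other hairpin.

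The BE2C lists were longer and had the higher background. The Kelly lists held 64808, 60457 and 65740 peaks on chromosomes 1 to 22 and X in replicates 1, 2 and 3. The BE2C lists held 75798, 77607 and 81637. Each BE2C list was longer than each Kelly list. Mean lengths were 63668 ± 2820 and 78347 ± 2989 peaks (SD, n = 3 libraries each), a ratio of Kelly to BE2C of 0.812. The covered sequence was 38.2 ± 1.69 Mb in Kelly and 52.4 ± 3.00 Mb in BE2C (SD, n = 3 each), a ratio of 0.729. The genome-wide background (overlapping reads per position, derived from each peak's fold and p, and moving with depth) was 2.91, 2.88 and 2.56 in Kelly and 3.40, 3.55 and 4.42 in BE2C. A two-sided exact permutation test gave p = 0.1 for each of these 3 measures, the smallest that 3 against 3 libraries allow. The part of depth in the difference of list lengths was not tested.

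To set lists of equal length side by side, each was shortened to its 60457 peaks with the highest −log10 p, which kept between 92.0% and 100% of a Kelly list and between 74.1% and 79.8% of a BE2C list. The last peak kept had a −log10 p of 4.58, 3.23 and 4.61 in Kelly and 6.82, 6.65 and 6.63 in BE2C. The lists grouped by line. The mean Jaccard index, the bases shared by a pair of lists over the bases covered by either, was 0.573 within Kelly, 0.692 within BE2C and 0.444 between the lines. The 9 pairs between the lines ranged from 0.412 to 0.469 and the 6 pairs within a line from 0.559 to 0.698, without overlap. The difference of 0.188 had an exact permutation p = 0.1, the smallest that 10 groupings allow.

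Of the 108190 regions, 4.05% were Kelly-specific and 8.92% were BE2C-specific. A further 30421 regions (28.1%) had a length-matched peak in all 6 libraries, and 63738 (58.9%) fell in none of these sets. The rule itself fixes the difference in presence, so these counts are a description with no test. Absence was judged in full lists, which were longer in BE2C, so the counts of the 2 lines were not made on equal terms. With absence judged in the shortened lists they were 5984 in Kelly and 10015 in BE2C. The median width of a region was 682 bp for Kelly-specific, 750 bp for BE2C-specific and 1129 bp for regions in all 6 lists. Together the specific regions covered 3.19 Mb in Kelly and 7.64 Mb in BE2C, against 36.1 Mb for regions in all 6 lists.

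Most regions that all 3 libraries of a line held were also found in the other line. Of 39968 regions with a matched peak in all 3 Kelly libraries, 32010 (80.1%) had a peak in all 3 full BE2C lists. Peaks in 2 and 1 of the BE2C lists were found at 1908 and 1668 of them, and 4382 (11%) had no BE2C peak. In BE2C, 49001 regions had a matched peak in all 3 libraries, and 30631 of them (62.5%) had a peak in all 3 full Kelly lists. A further 4749 and 3972 had one in 2 and 1 Kelly lists, and 9649 (19.7%) had none. Regions outside the rule through 1 or 2 peaks in the other line had a similar strength, while those with a peak in only 2 of 3 own libraries were weaker. The median fold over local background, the authors' own value for each peak, was 4.78 for Kelly-specific regions and 4.75 and 4.88 where 1 or 2 BE2C lists had a peak. For BE2C-specific regions it was 5.18, with 5.28 and 5.47 where 1 or 2 Kelly lists had a peak. Regions with a matched peak in only 2 of 3 libraries of the own line and none in the other numbered 4942 in Kelly, with a median fold of 3.87, and 4535 in BE2C, with 4.10.

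The line-specific regions were the weaker part of each list. In Kelly replicates 1, 2 and 3, their median fold was 4.81, 4.57 and 4.84, while that of regions in all 6 lists was 6.90, 6.37 and 7.08. In BE2C the medians were 5.46, 5.24 and 4.83 against 7.51, 7.28 and 6.65. Every library thus had a lower median fold at its line-specific regions. Counted from the strongest peak, their median rank lay between 54.4% and 58.7% of the list in Kelly and between 60.9% and 61.3% in BE2C. Regions in all 6 lists had median ranks between 26.9% and 28.4%. The peaks were also narrower, with medians between 466 and 496 bp in Kelly and between 542 and 603 bp in BE2C. At regions in all 6 lists the medians ran from 731 to 803 bp in Kelly and from 899 to 966 bp in BE2C. Since the rule ranks peaks by their strength, these values describe its outcome.

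Few of the strongest peaks were specific to a line. In the strongest decile of a list, between 0.430% and 0.612% of Kelly peaks and between 0.976% and 1.12% of BE2C peaks lay in line-specific regions. In that decile at least 98.8% of Kelly peaks and at least 97.5% of BE2C peaks lay in regions found in all 6 lists. The specific share was highest in the middle of the lists, between 12.1% and 13.2% in the sixth decile of the Kelly lists and between 26.9% and 27.8% in the seventh decile of the BE2C lists. It was lower again in the weakest decile, between 3.08% and 5.18% in Kelly and between 12% and 12.9% in BE2C. The need for a peak in all 3 libraries limits this share at the weak end, where few regions of any kind were in every list. Regions in all 6 lists took between 6.35% and 9.26% of the weakest decile.

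**Figure D1:**
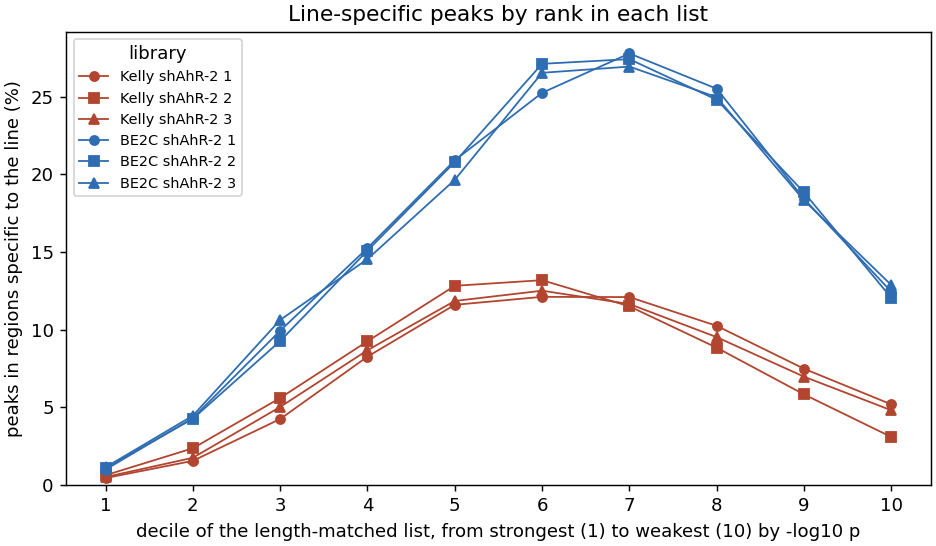
Percentage of the peaks of each length-matched list that lay in line-specific regions (y axis), by decile of the list from strongest to weakest −log10 p (x axis), with 1 line for each of the 3 Kelly and 3 BE2C shAhR-2 libraries. The BE2C curves run above the Kelly curves and peak 1 decile later, at 26.9% to 27.8% against 12.1% to 13.2%.

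A small number of line-specific regions were strong in every library that held them. Ordered by the lowest of the 3 folds, 10 regions per line were named; they were chosen for this strength and get no test. The first Kelly-specific region, on chromosome 12 at 132166347 to 132167282 (hg19, as are all positions given), had folds of 15.1, 13.2 and 15.0 in replicates 1, 2 and 3. It had peaks of 8.59 to 16.6 in the 6 other Kelly libraries. All 3 BE2C pLKO libraries also had a peak there, with folds of 5.45, 5.25 and 8.37, so its absence from BE2C did not extend to the empty vector.

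The second Kelly-specific region, on chromosome 9 at 92912045 to 92912632, had folds of 17.4, 13.2 and 18.3. The 6 other Kelly libraries had folds between 12.3 and 25.7 there, and none of the 9 BE2C libraries had a peak. The nearest site with a peak in all 18 libraries was 978 kb away. Regions on chromosome 10 at 63422507 to 63423097 (13.0, 12.3 and 13.2) and chromosome 14 at 29298974 to 29299839 (14.0, 12.1 and 13.2) followed. Both had a peak in all 6 other Kelly libraries and in no BE2C library, as did the sixth, on chromosome 6 at 113200884 to 113201838, and the tenth, on chromosome 10 at 96990208 to 96991223.

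Other strong Kelly-specific regions were less regular across the vectors. The fifth, on chromosome 11 at 87618956 to 87619717, had folds of 10.9, 11 and 11.6 with shAhR-2. It had weaker peaks of 3.97 and 4.87 in pLKO replicates 1 and 3, and none in pLKO replicate 2 or with shAhR-1. The eighth, on chromosome 11 at 39103362 to 39104819, had folds of 10.4, 10.5 and 12.1 with shAhR-2, 6.17 and 8.74 in the same 2 pLKO libraries, and no peak with shAhR-1. The seventh, on chromosome 5 at 144017980 to 144019056, was in 5 of the 6 other Kelly libraries and also in BE2C shAhR-1 replicate 1, with a fold of 5.30. The ninth lay on chromosome 3 at 108763883 to 108764729 and was in 4 of the 6. The Kelly shAhR-1 and pLKO lists were shorter than the shAhR-2 lists, and a missing peak means only that none passed the caller.

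Among the BE2C-specific regions, the first, on chromosome 2 at 112392478 to 112393099, had folds of 14.5, 14.1 and 13.2 in replicates 1, 2 and 3. All 6 other BE2C libraries had a peak there, with folds between 5.97 and 15.0, and no Kelly library did. The second, on chromosome X at 2171021 to 2171766, had folds of 15.9, 16.3 and 12.6. There the 6 other BE2C libraries had folds between 10.8 and 16.5, and again no Kelly library had a peak. The sixth, on chromosome 8 at 54597942 to 54598986, had 11.8, 11.8 and 12.4 and was likewise in 6 of 6 other BE2C libraries and 0 of 6 other Kelly libraries.

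The third, the fourth and the eighth BE2C-specific regions, on chromosome 8 (136611879 to 136612562), chromosome 2 (172410285 to 172411005) and chromosome 18 (60742230 to 60742766), were each in 4 of 6 other BE2C libraries. At each of them the missing libraries were replicates 2 and 3 of shAhR-1. The seventh, on chromosome 14 at 83108461 to 83109228, had folds of 13.4, 11.7 and 12.4 with shAhR-2 and was seen elsewhere only in BE2C shAhR-1 replicate 1, with 9.42. Peaks in other Kelly libraries were found at 3 of the 10 regions. The fifth, on chromosome X at 284113 to 284744, had a fold of 5.67 in Kelly pLKO replicate 1. The ninth, on chromosome 19 at 46581890 to 46582495, had 4.26 in Kelly shAhR-1 replicate 3. The tenth, on chromosome 5 at 58321581 to 58322239, had 8.83 and 8.22 in Kelly pLKO replicates 1 and 3.

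**Figure D2:**
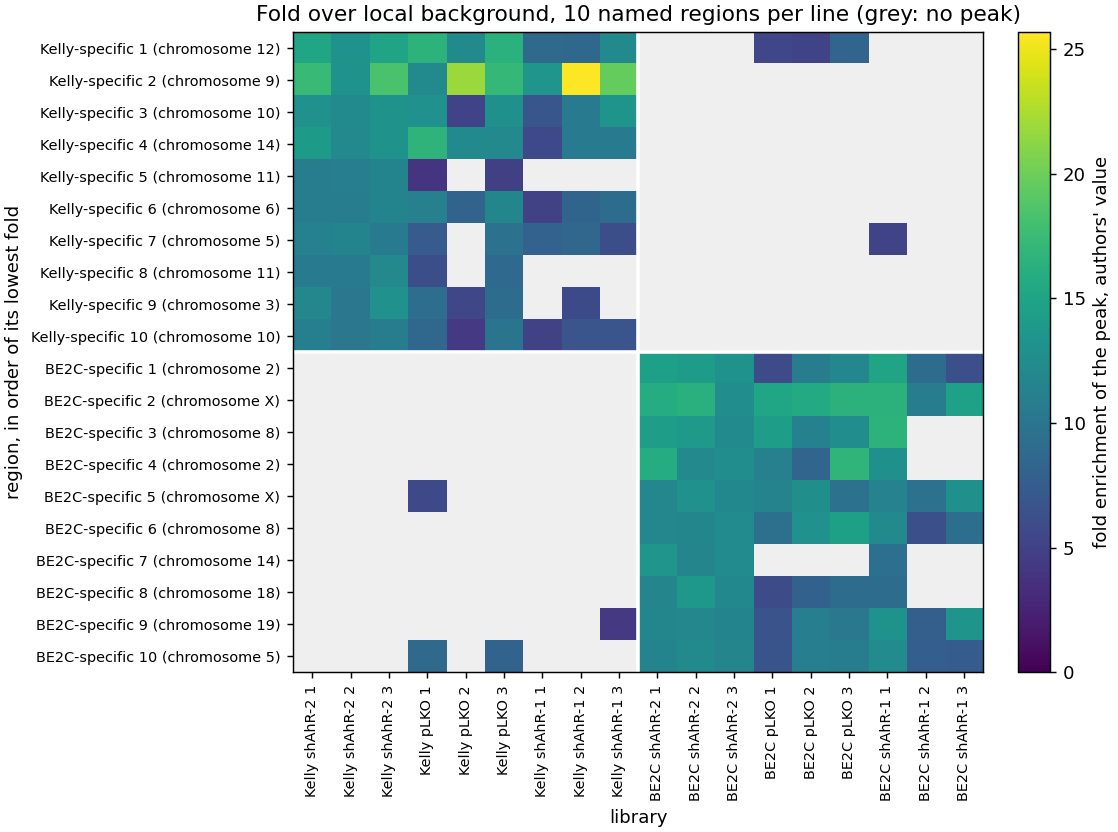
Fold enrichment over local background (colour, the authors' value) at the 10 Kelly-specific and 10 BE2C-specific regions with the highest lowest fold (rows) in each of the 18 libraries (columns), with grey where no peak was called. The shAhR-2 columns are filled by the rule; in the other columns of the opposite line, peaks appear at 2 Kelly-specific and 3 BE2C-specific regions.

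The 12 libraries with pLKO or shAhR-1 had no part in choosing the regions and so allow a test. Their full lists held 9204 to 45023 peaks, shorter than every shAhR-2 list, and replicate 1 of Kelly shAhR-1 was the shortest. Kelly-specific regions had a peak at 28.2%, 8.95% and 22.1% of their number in Kelly pLKO replicates 1, 2 and 3, and at 3.61%, 14.9% and 15.6% in Kelly shAhR-1. In BE2C the shares were 0.890%, 0.844% and 1.62% with pLKO and 2.19%, 0.388% and 0.411% with shAhR-1. Every Kelly library was above every BE2C library. The means were 15.6% ± 8.82 and 1.06% ± 0.713 (SD, n = 6 each), a difference of 14.5 percentage points. The two-sided exact permutation test with line labels exchanged within each vector gave p = 0.005, the smallest that 400 arrangements allow (adjusted p = 0.005 over the 2 sets). Without Kelly shAhR-1 replicate 1 the difference was 16.9 points (exact permutation, adjusted p = 0.01).

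BE2C-specific regions, whose own-line libraries had longer lists, had a peak at 36.7%, 40.6% and 57.0% of their number in BE2C pLKO replicates 1, 2 and 3, and at 60.9%, 27.6% and 21.6% in BE2C shAhR-1. In Kelly the shares were 8.95%, 1.72% and 6.78% with pLKO and 0.529%, 4.46% and 4.01% with shAhR-1. The groups did not overlap here either. The means were 40.8% ± 15.6 in BE2C and 4.41% ± 3.12 in Kelly (SD, n = 6 each), a difference of −36.3 points for Kelly minus BE2C, with p = 0.005 in the same exact permutation test (adjusted p = 0.005). Regions in all 6 shAhR-2 lists had a peak at 57.7% ± 18.6 of their number in these Kelly libraries and at 74.0% ± 9.92 in these BE2C libraries (SD, n = 6 each).

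Since longer lists hold more of any set, the 12 lists were also cut to the 9204 strongest peaks. Kelly-specific regions then had a peak at 1.73% to 3.61% of their number in the Kelly libraries and at 0% to 0.0456% in the BE2C libraries. BE2C-specific regions had one at 2.06% to 2.52% in BE2C and at 0.135% to 0.529% in Kelly. The own-line means were 2.57% ± 0.697 for Kelly-specific and 2.22% ± 0.197 for BE2C-specific regions (SD, n = 6 each), and their ranges overlapped. At equal length the share of BE2C-specific regions was thus no longer the higher one. With 9204 peaks per list, the same number of regions is a smaller share of 9649 BE2C-specific than of 4382 Kelly-specific regions. The shares of the 2 sets therefore do not compare how many regions were found again. In Kelly shAhR-1 replicate 1, 17 and 7 of the 158 Kelly-specific regions found lay in the 2 chromosome 2 runs described below. Both differences, 2.56 and −1.93 points for Kelly minus BE2C, gave p = 0.005 in the exact permutation test (adjusted p = 0.005).

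**Figure D3:**
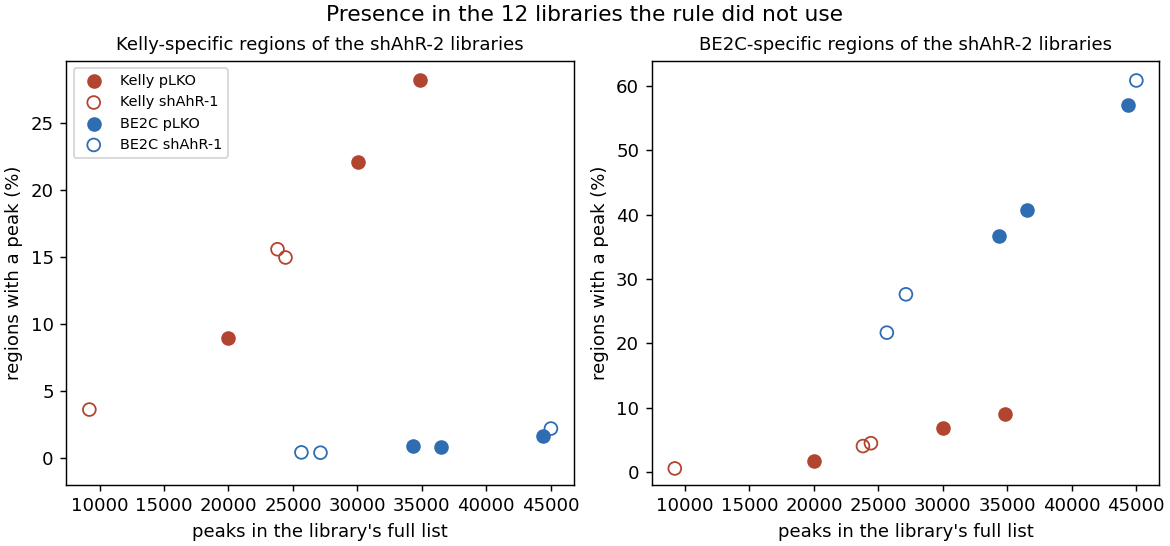
Percentage of the Kelly-specific (left) and BE2C-specific (right) regions with a peak in each of the 12 pLKO and shAhR-1 libraries (y axis) against the number of peaks in the full list of the library (x axis). In both panels the 6 libraries of the own line lie above all 6 of the other line, and longer lists hold more of the regions.

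Counted by region, 1702 Kelly-specific regions (38.8%) had a peak in at least 1 of the 6 other Kelly libraries and 2680 (61.2%) in none. Peaks in at least 1 of the 6 other BE2C libraries were found at 209 (4.77%). Among the BE2C-specific regions, 7452 (77.2%) had a peak in at least 1 other BE2C library and 1379 (14.3%) in at least 1 other Kelly library. Regions that were in every library of one line and in none of the other numbered 70 in Kelly (1.60%) and 765 in BE2C (7.93%). These numbers come from full lists, which were longer in BE2C, with means of 38422 peaks with pLKO and 32608 with shAhR-1, against 28295 and 19145 in Kelly. Because of these lengths, the counts of the 2 lines are not comparable with each other. A region without a peak in these lists cannot be called closed.

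How often a region was found with the empty vector followed its strength with shAhR-2. Kelly-specific regions in the strongest quintile of the list by mean rank (124 regions) had a peak at 80.9% ± 8.70 of their number in Kelly pLKO libraries (SD, n = 3). The value was 37.4% in the second quintile, 18.6% in the third, 11.5% in the fourth and 7.08% ± 2.38 in the weakest (391 regions). BE2C-specific regions went from 96.9% ± 1.40 in the strongest quintile (298 regions) through 79.3%, 51.3% and 32.6% to 21.9% ± 9.28 in the weakest (1546 regions). Regions in all 6 lists ran from 95.9% to 18.3% in Kelly pLKO libraries and from 99.5% to 19.9% in BE2C pLKO libraries.

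The same rule applied to the pLKO trios, at their own matched length of 19984 peaks, called 575 of 32159 regions (1.79%) Kelly-specific and 1501 (4.67%) BE2C-specific. Of the Kelly-specific regions found with shAhR-2, 198 (4.52%) overlapped one of the pLKO list, while 34.3% of the pLKO list overlapped one found with shAhR-2. In BE2C 642 regions (6.65%) of the shAhR-2 list did so, against 42.6% of the pLKO list. With shAhR-1, matched at 9204 peaks, 82 of 16609 regions (0.494%) were Kelly-specific and 149 (0.897%) BE2C-specific. Of these, 64.6% and 36.9% overlapped a region of the same kind found with shAhR-2. The lists differ in length, so the shares of the shorter list and of the longer one are not comparable with each other.

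Position was described by the distance to the nearest of 6343 sites that had a peak in all 18 libraries, in place of a distance to promoters. Line-specific regions lay far from such sites. The median distance was 249 kb for Kelly-specific regions (quartiles 101 and 550 kb) and 171 kb for BE2C-specific regions (62.8 and 422 kb). More than 10 kb away were 97.6% and 96.2% of them, and more than 100 kb away 75.3% and 64.1%. For the 24068 regions in all 6 lists that were not themselves such sites, the median was 117 kb, with 95.0% beyond 10 kb and 54.7% beyond 100 kb. Nearly all regions that are not such sites thus lie beyond 10 kb, and the sets differ in the longer distances.

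The distance changed little with strength within the specific sets. From the strongest to the weakest quintile, Kelly-specific medians were 256, 272, 239, 245 and 235 kb, against 103, 121, 125, 129 and 128 kb for the regions in all 6 lists but not in all 18 libraries. BE2C-specific medians were 203, 181, 168, 165 and 167 kb, against 119, 117, 114, 119 and 126 kb. In each quintile the specific median was the larger. The number of sites depends on the shortest list. Without Kelly shAhR-1 replicate 1 there were 11739 sites, and the medians fell to 183 kb for Kelly-specific, 78.1 kb for BE2C-specific and 38.9 kb for the 24068 other regions. The shares beyond 100 kb were then 65.6%, 43.2% and 28.5%, in the same order as with 18 libraries. The 24068 regions were not chosen anew, so those that had become sites counted as 0 kb, which lowers their values. Their median was 0 kb in the strongest quintile of either line. In the weakest quintile, specific and other medians were 180 and 76.0 kb in Kelly and 78.9 and 73.9 kb in BE2C.

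**Figure D4:**
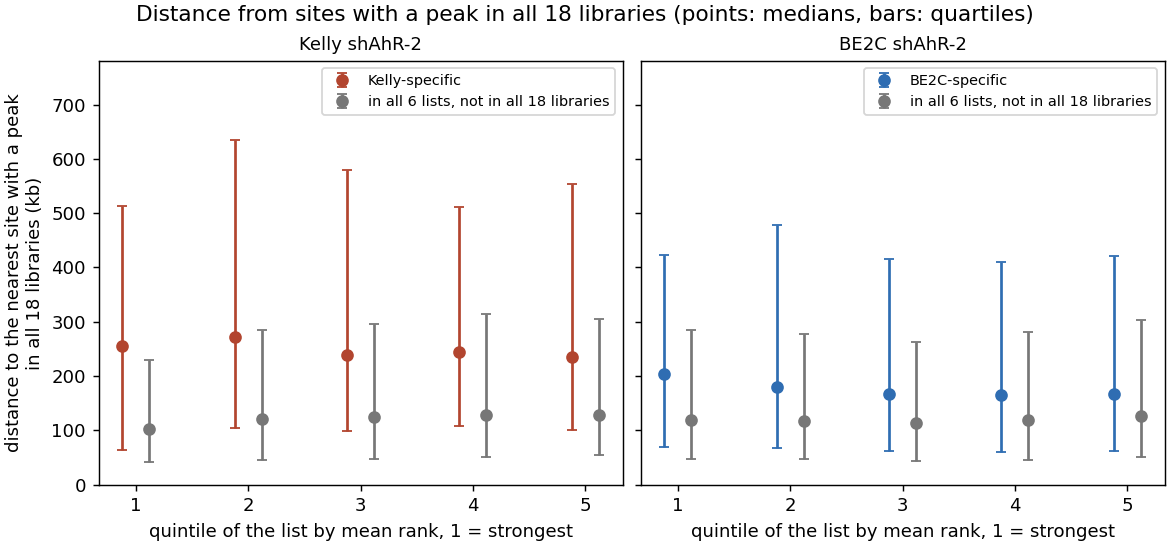
Distance to the nearest site with a peak in all 18 libraries (y axis, kb; points are medians, bars run from the lower to the upper quartile) by quintile of the list by mean rank, strongest first (x axis), for line-specific regions and for regions in all 6 lists that are not such sites. In every quintile the line-specific median is higher, between 235 and 272 kb in Kelly and between 165 and 203 kb in BE2C, while the quartile ranges overlap.

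Line-specific regions were unevenly spread over the chromosomes. BE2C-specific regions outnumbered Kelly-specific ones on 20 of 23 chromosomes. The exceptions were chromosome 3, with 546 Kelly-specific and 436 BE2C-specific regions, chromosome 13, with 161 and 159, and chromosome 22, with 71 and 61. At the other end, chromosome 20 had 33 Kelly-specific and 380 BE2C-specific regions, and chromosome 9 had 150 and 637. Chromosome 18 had 64 and 269, and chromosome 11 had 195 and 737.

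The read pileup at regions open in both lines was uneven in the same direction. The pileup is how many reads overlap the summit of a peak, solved from the deposited fold and p, and its log2 ratio of Kelly to BE2C was taken at 30393 regions in all 6 lists and centred on the genome-wide median. The median ratio was −0.55 on chromosome 20, −0.36 on chromosome 9, −0.35 on chromosome 18 and −0.20 on chromosome 11. It was 0.66 on chromosome 22, 0.42 on chromosome 17 and 0.30 on chromosome 3. Over 300 windows of 10 Mb, the ratio correlated with the log2 ratio of Kelly-specific to BE2C-specific counts (Pearson r = 0.721, Spearman rho = 0.671). The windows share the same 6 libraries, and neighbouring windows are not independent. Whether copy number differs between the lines in these windows was not tested.

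In the 32 windows with a ratio below −0.5, 126 of 10149 regions (1.24%) were Kelly-specific and 2186 (21.5%) were BE2C-specific. In the 78 windows between −0.1 and 0.1, 1184 of 30455 regions (3.89%) were Kelly-specific and 2172 (7.13%) BE2C-specific. In the 22 windows of at least 0.5, the counts were 423 (5.63%) and 332 (4.42%) of 7510. The Kelly-specific share was thus higher, and the BE2C-specific share lower, where shared regions had relatively more reads in Kelly. The 2 sets were therefore also looked at in the 78 windows of near equal pileup alone. There, Kelly-specific regions had a peak at 13.2% ± 7.72 of their number in the 6 other Kelly libraries and at 1.27% ± 0.914 in the 6 other BE2C libraries. BE2C-specific regions had one at 5.0% ± 3.32 and 40.8% ± 15.6 (SD, n = 6 each). Both differences, 12 and −35.8 points, gave p = 0.005 in the exact permutation test (adjusted p = 0.005), close to the values over all windows. Each window was classed by the median of its shared regions, so shorter stretches of unequal pileup can remain in it. On chromosome 3, the window from 170 to 180 Mb had a ratio of 0.101, just outside this range. Shared regions near 2 Kelly runs in that window had median ratios of 1.96 and 1.57. Whether the differences depend on unequal pileup at this finer scale was not tested.

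Neighbouring windows formed long segments. On chromosome 9 from 70 to 120 Mb, 7 of 1436 regions were Kelly-specific and 429 (29.9%) BE2C-specific, with pileup ratios between −1.27 and −1.15 in all 5 windows. One of those 7 was the strong Kelly-specific region at 92912045 named above. On chromosome 11 beyond 110 Mb, 4 of 1125 regions were Kelly-specific and 349 (31.0%) BE2C-specific, with ratios between −1.81 and −0.69. On chromosome 2 from 190 Mb to its end the counts were 30 and 380 of 2493, with ratios between −1.13 and −0.51. On chromosome 7, the window from 100 to 110 Mb had 0 Kelly-specific and 120 BE2C-specific of 389 regions, with a ratio of −1.03. The reverse was seen on chromosome 9 from 0 to 10 Mb, where 41 of 372 regions were Kelly-specific and 2 were BE2C-specific, with a ratio of 0.58. On chromosome 17 from 50 to 70 Mb, 63 of 1030 regions were Kelly-specific and 21 BE2C-specific, with ratios of 0.55 and 0.61. On chromosome 2 from 50 to 80 Mb, 77 and 38 of 894 were, with ratios between 0.51 and 0.75. Other segments with such ratios did not show a clear Kelly excess. On chromosome 1 from 10 to 50 Mb, with ratios between 0.54 and 0.71, 46 regions were Kelly-specific and 81 BE2C-specific. The counts were 27 and 34 on chromosome 3 from 40 to 60 Mb and 36 and 32 on chromosome 11 from 50 to 70 Mb. On chromosome 22 from 10 to 60 Mb they were 71 and 61.

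**Figure D5:**
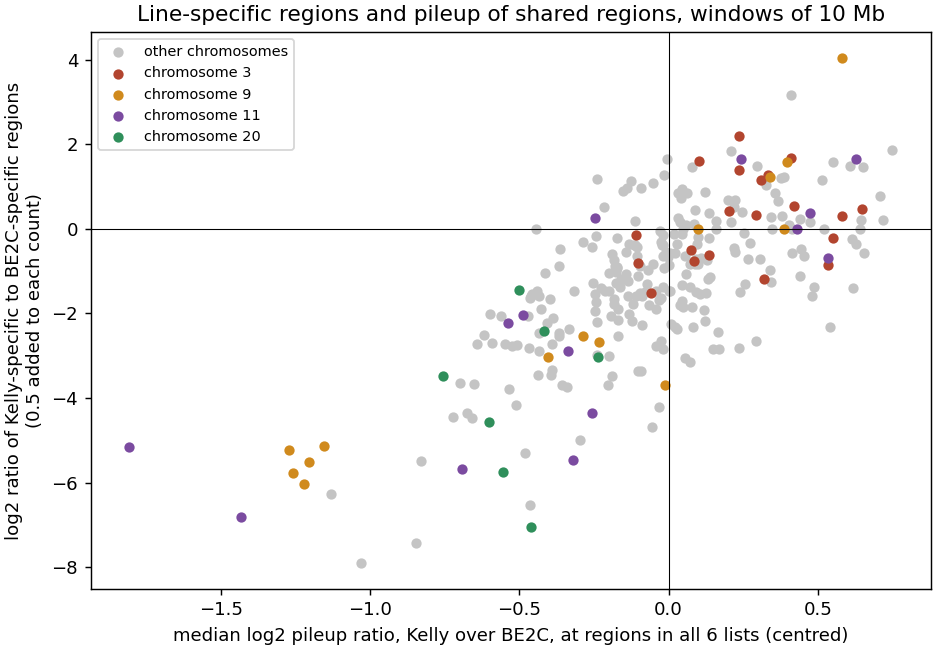
Log2 ratio of Kelly-specific to BE2C-specific region counts, with 0.5 added to each count (y axis), against the centred median log2 ratio of pileup, Kelly over BE2C, at regions in all 6 lists (x axis); each point is 1 of 300 windows of 10 Mb and 4 chromosomes are coloured. Windows of chromosomes 9 and 11 with pileup ratios below −1 lie at the lower left, and a chromosome 9 window at a ratio of 0.58 is the highest point.

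At a finer scale, most line-specific regions stood alone or in small groups. With neighbours joined when at most 50 kb apart, 3033 Kelly-specific and 4716 BE2C-specific regions had no neighbour of their kind. Runs of at least 6 regions numbered 11 in Kelly, with 130 regions (2.97%), and 78 in BE2C, with 610 (6.32%). BE2C-specific regions were more numerous and so lay closer together, with a median gap of 107 kb against 262 kb.

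The 2 largest Kelly runs lay close together on the short arm of chromosome 2, the arm that carries MYCN, whose position relative to the runs was not analysed here. From 16604817 to 16840772, 41 of 79 regions were Kelly-specific, and from 15834281 to 16074451, 27 of 63 were. These regions had low folds. The lowest fold over the 3 Kelly libraries was 1.26 to 2.41 in the run from 16604817 and 1.30 to 2.60 in the other. Its median over all Kelly-specific regions was 4.09. The local background of the peaks there was far above the genome-wide one in Kelly alone. In the first of these runs it was 71.2, 69.2 and 81.6 times the genome-wide background in Kelly replicates 1, 2 and 3, and 1.62, 1.44 and 1.12 times in BE2C. In the second it was 96.8, 98.8 and 104 times in Kelly and 2.17, 2.32 and 1.78 times in BE2C. Between the runs both lines were high. In bins of 100 kb, all 3 Kelly libraries reached 20 times the genome-wide background without a break from 15800001 to 16900000, and all 3 BE2C libraries from 16100001 to 16600000. The runs thus lie in the 2 flanks that were high in Kelly but not in all BE2C libraries.

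These chromosome 2 runs were seen with every vector in Kelly. In the first, Kelly pLKO replicates 1, 2 and 3 had a peak at 31, 35 and 23 of the 41 regions and Kelly shAhR-1 at 17, 29 and 34. In the second, the numbers were 20, 24 and 14 and then 7, 20 and 20 of 27. None of the 6 other BE2C libraries had a peak at any of them (0 of 41 and 0 of 27). Such high background was rare elsewhere in the specific sets. Where the local background could be solved, 43 Kelly-specific regions (0.981% of all) reached 20 times the genome-wide one in their own line. Of these, 42 were on chromosome 2, and 5 BE2C-specific regions reached it. Peaks with a fold below 1.5 had no solved background, so the count leaves out part of the 41 and 27 regions of the runs.

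The other Kelly runs had 10 regions or fewer. On chromosome 10 from 37175309 to 37322656, 10 of 13 regions were Kelly-specific, with a local background of 1.38, 1.48 and 1.46 times the genome-wide one in Kelly. On chromosome 3, from 173629288 to 173807715 and from 173903764 to 174065910, 8 of 12 and 7 of 13 regions were. On chromosome 8 from 64444043 to 64564889, 7 of 8 were. Shared regions within 1 Mb of the 2 chromosome 3 runs, 4 and 5 in number, had more reads in Kelly. Their median centred log2 ratios of pileup, Kelly to BE2C, were 1.96 and 1.57. Near the runs on chromosomes 10 and 8 the ratios were −0.10 and −0.08, from 3 and 12 shared regions. Recurrence was mostly lower in these runs than in the chromosome 2 runs. An exception was the chromosome 8 run in Kelly pLKO replicate 3, with 4 of 7 regions, against 23 of 41 and 14 of 27. On chromosome 10, Kelly pLKO replicates 1, 2 and 3 had 4, 1 and 3 peaks at the 10 regions and Kelly shAhR-1 had 0, 1 and 2. Of all 11 Kelly runs, 4 had a peak at 1 or more of their regions in each of the 6 other Kelly libraries and 5 in some of them. The other 2, of 6 regions each on chromosome 7 from 26452667 to 26575785 and from 152676527 to 152789307, had 0 in all 6.

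The largest BE2C runs lay mostly on chromosomes 11, 7 and 4. On chromosome 11, 17 of 22 regions from 128171903 to 128377922, 17 of 35 from 122954246 to 123343750 and 15 of 24 from 119928084 to 120188241 were BE2C-specific. On chromosome 7, 15 of 22 from 103329807 to 103588180 and 15 of 32 from 107851984 to 108138008 were. On chromosome 4 from 7763242 to 8089284, 17 of 29 were. Shared regions within 1 Mb of these 6 runs had more reads in BE2C, with median centred log2 ratios of Kelly to BE2C between −1.38 and −0.89. On chromosome 12 from 64299006 to 64491835, where 13 of 22 regions were BE2C-specific, the ratio was −0.44.

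The BE2C runs recurred to different degrees with the other vectors. Of the 78, 62 had a peak at 1 or more of their regions in each of the 6 other BE2C libraries and 16 in some of them, and 45 had none in any of the 6 other Kelly libraries. At the 17 regions on chromosome 11 from 128171903, BE2C pLKO replicates 1, 2 and 3 had 9, 10 and 15 peaks and BE2C shAhR-1 had 12, 9 and 11, while 5 of 6 other Kelly libraries had 0 and the sixth had 1. At the 15 regions on chromosome 7 from 103329807, the numbers were 10, 10 and 12 with pLKO and 12, 8 and 7 with shAhR-1, against 0 in all 6 other Kelly libraries. Fewer were found at the 15 regions on chromosome 11 from 119928084, with 4, 3 and 10 in BE2C pLKO and 6, 2 and 2 in BE2C shAhR-1. On chromosome 4 from 7763242 they were 9, 5 and 9 and then 11, 3 and 3 of 17. Neither run had a peak in the other Kelly libraries (0 of 15 and 0 of 17).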

How the data were processed

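The values were those of 18 ATAC-seq peak lists on hg19, 1 per library, as the authors deposited them. The build and the tools are from the submitters' processing notes, which name MACS2 2.1.0, BWA 0.7.17, deepTools 3.1.3, Trimmomatic 0.33 and CASAVA 1.8.2. Not given in the sources used here are their settings, whether mitochondrial or duplicate reads were removed and whether read ends were shifted, and such steps can change which peaks pass. Each peak carried a score, a fold enrichment (a linear ratio), a −log10 p-value, a −log10 q-value and a summit offset, all as deposited by the authors' caller. The lists hold no value where no peak was called.

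Only peaks of chromosomes 1 to 22 and X were used, without 0.197% to 0.262% of the 6 shAhR-2 lists. Lists were shortened by −log10 p, peaks overlapping by at least 1 bp were merged into regions, and a peak anywhere in a region counted as presence. Line labels were exchanged in two-sided exact permutation tests, within each vector for the 12 libraries, with Benjamini-Hochberg adjustment. Pileup P and local background L were solved from the fold, taken as (P + 1)/(L + 1), and a Poisson tail for p. Peaks with a fold below 1.5 were left unsolved. In the 6 shAhR-2 libraries at least 99.8% of peaks were solved, and at least 99.98% of solved pileups with a fold of at least 1.5 were whole numbers within 0.05. The lowest L of a library was its genome-wide background and, without read totals, the measure of depth. Windows of 10 Mb needed at least 20 regions in all 6 lists. The 10 regions named per line had the highest lowest fold over their 3 libraries; runs, windows and segments were picked with their values in view. The members and lists were chosen with earlier results of these data known. Genes near the regions and their sequences were not analysed here. The functions were tested on simulated data. Python 3.11.15, numpy 2.4.6, pandas 2.3.3, scipy 1.17.1 and matplotlib 3.10.9 were used.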

Additional observations from a re-analysis of the deposited data

How the results depend on the processing

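The number of Kelly-specific regions depended on the rule for presence. It was 9324 when 2 of 3 libraries sufficed and 2816 when peaks had to cover at least 50% of a region, where BE2C had 14184 and 7646. Leaving out 1 library gave 4798 to 6850 Kelly-specific regions, the highest without Kelly replicate 2, and 11050 to 11644 BE2C-specific ones. Full lists gave 4643 and 13529, shortening by fold 4324 and 9585, a −log10 q of at least 5 gave 3394 and 12765, absence judged in shortened lists 5984 and 10015, and windows of 250 bp to either side of the summits 4618 and 9747.

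The difference in shares between lines, Kelly minus BE2C, was 18.6 and −39.0 points with pLKO alone and 10.4 and −33.7 with shAhR-1 alone (exact permutation, adjusted p = 0.1 each, the smallest that 20 arrangements allow). Leaving out 1 of the 12 libraries gave 12 to 16.9 and −40.2 to −32.3 points (exact permutation, adjusted p = 0.005 to 0.01). Leaving out 1 of 6 libraries gave log2 ratios of −0.32 to −0.26 for peak number and −0.50 to −0.41 for covered length, and a Jaccard difference of 0.156 to 0.224. At a −log10 q of at least 5, the log2 ratios were −0.43 and −0.54.

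Same-numbered libraries of the 2 lines did not deviate together (r = 0.04, −0.11 and −0.13 over 30393 regions), nor did each correlate best with its own number. With the replicate number as a block, the differences stayed 14.5 and −36.3 points (exact permutation, adjusted p = 0.0312, 64 arrangements) and the log2 ratios −0.30 and −0.46 (p = 0.25, the smallest of 8).

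Runs of at least 6 numbered 4 and 17 with neighbours at most 25 kb apart and 25 and 219 at 100 kb. Windows of 5 and 20 Mb gave r = 0.662 and 0.770. The alternatives for near equal pileup, run gaps, window sizes, 17 libraries and the left-out lists of the Jaccard index were chosen after seeing the data. Those on start sites, nearby genes and sequence were not run. Short lists of the 12 libraries limit how many regions could be found again.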

Other observations

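A few regions went against their line in the empty-vector libraries, chosen here after their values were seen. Among Kelly-specific regions, 2 had a peak in all 3 BE2C pLKO libraries and in no Kelly pLKO library. One, on chromosome 3 at 186582247 to 186582660, had folds of 5.11, 6.97 and 5.89 in Kelly shAhR-2 and of 5.17, 4.92 and 4.28 in BE2C pLKO. With shAhR-1 it had a peak in replicates 2 and 3 of both lines. The other lay on chromosome 1 at 198849001 to 198849435. Among BE2C-specific regions, 8 had a peak in all 3 Kelly pLKO libraries and in no BE2C pLKO library. On chromosome 13 at 94706409 to 94706842, folds were 5.31, 5.51 and 5.07 in BE2C shAhR-2 and 10.1, 4.30 and 8.93 in Kelly pLKO. On chromosome 2 at 206436104 to 206436665, they were 5.23, 3.74 and 5.35 in BE2C shAhR-2 and 7.74, 4.11 and 7.09 in Kelly pLKO. With shAhR-1, both of these regions had a peak in Kelly replicates 2 and 3 and in BE2C replicate 1. Regions that went against their line were few beside those with a peak in all 3 pLKO libraries of their own line. The latter were 299 Kelly-specific regions (6.82%) and 2595 BE2C-specific regions (26.9%).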
